A study of Bos taurus with 30 samples.

Results

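GJA1 encodes Cx43, the most widely expressed connexin, and it is followed here as 1 gene among the 8073 named on a bovine array. It was found as the probe that the platform annotation pairs with the symbol GJA1 (gene ID 281193). There is 1 such probe, printed as 2 adjacent spots. GJA1 was chosen with its regional ratios in these pregnancies already known, so those ratios are described here with no test.

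The study set the 2 kinds of bovine endometrium against each other on 30 arrays with 2 colours. Caruncles are raised patches of the uterine lining without glands, to which the placenta attaches. Intercaruncular endometrium lies around them and is rich in glands. Each array held RNA from both tissues of 1 cow, with 2 arrays for each of 15 cows. Of the cows, 5 carried a clone obtained by somatic cell nuclear transfer (SCNT), 5 had received an embryo from in vitro fertilisation (IVF-ET) and 5 were pregnant after artificial insemination (AI). The labels used here give neither breed, age, parity nor day of pregnancy, and no other treatment. All groups were pregnant, so no value is a change from the cyclic uterus. Tissue pieces hold several cell types, and fewer cells of a type cannot be told apart from less RNA per cell.

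Connexins assemble into hemichannels, which dock with those of a neighbouring cell to form gap junctions. Ions, second messengers and small metabolites pass through these junctions. GJA1 is known as the gap junction protein of uterine smooth muscle and of endometrial stroma. In mice and humans, stromal gap junctions made of it take part in decidualisation, the change of stroma at implantation. Ruminants do not form a decidua of that kind.

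The measurement is the ratio between both tissues of a cow on a log scale, treated as log2, after the median of the array was set to 0. Which tissue stands on the positive side is not settled, since the order of the channels is not given in the sources used here. Sides below are those of the deposited ratio, negative or positive. The deposited values were read as ratios already turned to the tissues. Arrays did not all run one way. Set against the mean profile of the other SCNT and IVF-ET animals, with GJA1 left out, single arrays correlated over probes between r = -0.45 and 0.51, and 8 of 30 lay below 0. With correlations under -0.3 among them, group comparisons are given with the AI sign turned as well. In IVF-ET replicate 3 both arrays carried the same dye label and lay on opposite sides, so its arrays are shown but enter no mean, which leaves 14 animals. From 26744 to 27643 spots per array had a value. Precision is limited by the number of animals, since both arrays of a cow are averaged into 1 value.

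In SCNT pregnancies GJA1 stood on the negative side on 10 of 10 arrays. The values of the 2 arrays were -1.72 and -2.12 in SCNT replicate 1, -1.63 and -1.33 in replicate 2, -1.27 and -2.13 in replicate 3, -2.45 and -2.20 in replicate 4 and -1.48 and -0.48 in replicate 5. Replicate 4 lay farthest from 0 and replicate 5 nearest to it. As means of their arrays the 5 animals were at -1.92, -1.48, -1.70, -2.33 and -0.98. The group mean was -1.68 ± 0.50 (SD, n = 5), a 3.21-fold ratio between the tissues.

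In IVF-ET pregnancies GJA1 again stood on the negative side in the 4 animals with both dye orientations. Its 2 arrays gave -1.89 and -1.87 in IVF-ET replicate 1, -1.71 and -1.53 in replicate 2, -2.24 and -1.89 in replicate 4 and -1.81 and -1.25 in replicate 5. All 8 of these arrays were negative, and the animal means ran from -2.06 to -1.53. The group mean was -1.77 ± 0.24 (SD, n = 4), a 3.42-fold ratio. Of probes with a value in all 9 SCNT and IVF-ET animals, 2.12% were below 0 in each of them, as GJA1 was. The gene was chosen on these ratios, so nothing is read from this share. The arrays of replicate 3 were at 2.71 and -2.46. They were the largest sizes of the gene on any of the 30 arrays and had opposite signs.

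In AI pregnancies the animals did not share a side. The 2 arrays gave 0.62 and 1.06 in AI replicate 2, 0.70 and 2.16 in replicate 3 and 1.68 and 1.43 in replicate 4, all positive. They gave -0.22 and -0.34 in replicate 5, close to 0 on the negative side. In replicate 1 they opposed each other, at -1.96 and 0.52. Its mean of -0.72 is therefore that of 1 array like those of the SCNT animals and 1 on the other side. The animal means were -0.72, 0.84, 1.43, 1.55 and -0.28, and the group mean was 0.56 ± 1.02 (SD, n = 5). It was 0.89 without AI replicate 1, 0.35 without replicate 3 and 0.32 without replicate 4. With the sign of the AI group turned the mean is -0.56, on the side of the other groups and nearer to 0.

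**Figure D1:**
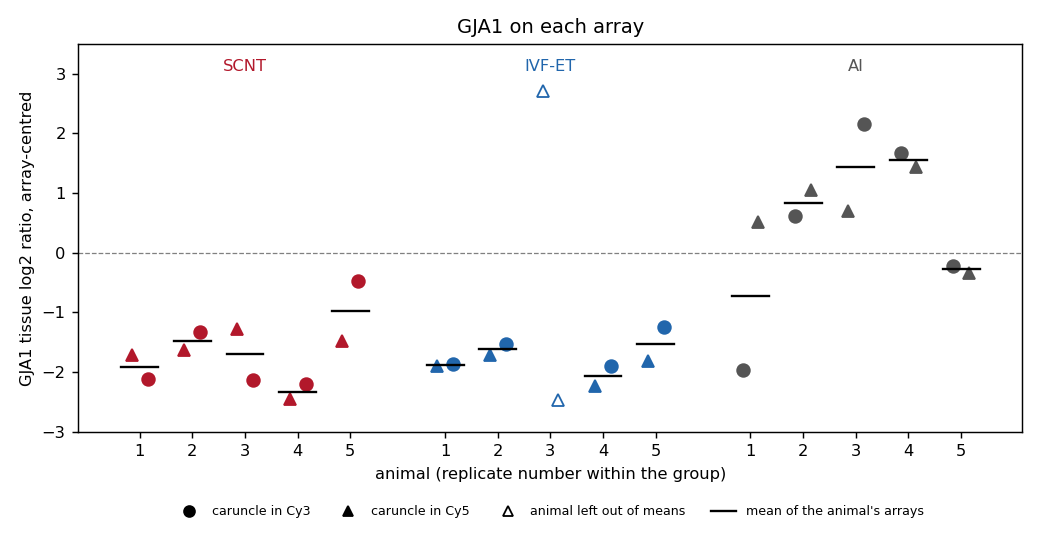
GJA1 tissue log2 ratio (vertical axis) on each of the 30 arrays, by animal in SCNT, IVF-ET and AI pregnancies. Symbols give the dye of the caruncle, open symbols the animal left out of means, and lines the mean of an animal's arrays. All SCNT arrays and all IVF-ET arrays but 1 lie below 0, while 7 of 10 AI arrays lie above it.

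Ordered by group mean, IVF-ET lay lowest, then SCNT, then AI. SCNT and IVF-ET are neighbours in that order that do not differ beyond their spread: SCNT minus IVF-ET was 0.09, against SDs of 0.50 and 0.24, and their animals overlapped. SCNT minus AI was -2.25 and IVF-ET minus AI was -2.34 on the log2 scale. The SCNT animals lay below the AI animals without overlap, by 0.26 between the nearest, and the IVF-ET animals by 0.81. Of all probes tested, 1.65% had every SCNT animal below every AI animal, and 1.85% had every IVF-ET animal below every AI animal. GJA1 was chosen on these ratios, so nothing is read from the shares. The comparisons share the AI animals. With the AI sign turned, the differences were -1.12 for SCNT minus AI and -1.21 for IVF-ET minus AI. The animals then overlap in both comparisons. AI replicate 4, at 1.55 as deposited, would lie farther from 0 than SCNT replicate 5 (-0.98) and IVF-ET replicate 5 (-1.53). Both the size of the differences and the lack of overlap therefore depend on how the AI arrays were deposited.

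The value of GJA1 was far out on most arrays. On 8 of 10 SCNT arrays and on 8 of 8 arrays of the IVF-ET animals with both dye orientations, it stood within the lowest 1% of probes. In IVF-ET replicate 4 no probe stood lower than GJA1 on the first array and 4 did on the second. In SCNT replicate 4 it was 4 probes on the first array and 2 on the second. The exceptions were the arrays of SCNT replicate 5, where 757 and 2275 probes stood lower. These arrays had the widest spread over probes, with SDs of 0.816 and 0.723, against 0.228 to 0.567 on the other 28 arrays. In AI replicate 4, 4 and 5 probes stood above GJA1, and in AI replicate 5 it lay well inside the distribution, with 3344 and 2313 probes below it.

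The side of GJA1 went with the side of the whole array. On 30 of 30 arrays its sign was opposite to that of the array's correlation with the mean profile of the other SCNT and IVF-ET animals. In the AI group, 7 arrays had a correlation below 0 (-0.45 to -0.08) and a positive GJA1 value of 0.52 to 2.16. The other 3 AI arrays had a correlation above 0 and a negative GJA1 value. They were the first array of replicate 1 (r = 0.51, GJA1 -1.96) and both arrays of replicate 5 (r = 0.18 and 0.05, GJA1 -0.22 and -0.34). The first array of IVF-ET replicate 3 likewise had r = -0.44 with GJA1 at 2.71, and the second r = 0.48 with GJA1 at -2.46. Among probes with a value on every AI array, 0.782% kept 1 relation to the array's side on all 10. The share was 0.13% over all 30 arrays, or 17 of 13061 probes. The choice of GJA1 used the ratios of these same animals, so nothing is read from these shares. Why arrays lie on opposite sides was not tested.

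**Figure D2:**
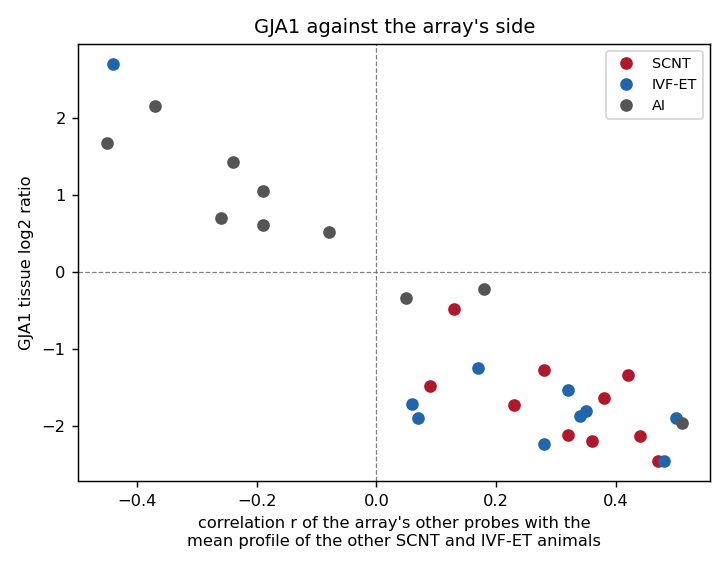
GJA1 tissue log2 ratio (vertical axis) against the correlation of each array's other probes with the mean profile of the other SCNT and IVF-ET animals (horizontal axis). Each of the 30 points is an array, and all lie in the upper left or the lower right.

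The 2 printed spots of the gene differed by 0.27 at most and by a median of 0.13 on the log2 scale, over 30 arrays. The spread between arrays of an animal was larger. The difference between the array with the caruncle in Cy5 and the array with it in Cy3, multiplied by 0.5, was between -0.73 and 1.24 over 14 animals. The largest size was that of AI replicate 1, followed by 0.73 in AI replicate 3 and 0.50 in SCNT replicate 5. This dye difference is separate from the mean by which the gene was chosen, and it is the tissue difference if the values are ratios of the dyes. It averaged -0.011 ± 0.46 (SD, n = 14), with 4 animals above 0 and 10 below. An exact two-sided sign-flip permutation test gave p = 0.937, and limma over all probes gave an adjusted p of 0.954 for GJA1. In that fit 17.5% of 13796 probes had an adjusted p under 0.05. By group the dye difference averaged -0.03 ± 0.36 in SCNT, -0.14 ± 0.12 in IVF-ET and 0.11 ± 0.72 in AI animals (SD, n = 5, 4 and 5).

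Other members of the family showed no regional ratio of that size. Of 23 other connexins and pannexins listed, 7 genes were measured. None was called in SCNT animals, where 1.82% of all probes were called with limma at an adjusted p under 0.05. None was called in IVF-ET or AI animals either, where 0 of 13818 probes were called and 1099 and 604 had an unadjusted p under 0.05. The 7 group means lay between -0.37 and 0.15 in SCNT, -0.39 and 0.22 in IVF-ET and -0.23 and 0.12 in AI animals. Their median was 0.01 in SCNT and -0.01 in the other groups, against medians over all probes within 0.005 of 0. Without SCNT replicate 1 the probes called in SCNT animals numbered 2 in place of 252.

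Among vascular connexins, GJA4, found in endothelium, averaged 0.06 ± 0.20 in SCNT, 0.22 ± 0.15 in IVF-ET and 0.12 ± 0.31 in AI animals (SD, n = 5, 4 and 5). GJA5, of vessels and cardiac conduction tissue, averaged 0.15 ± 0.13, with 5 of 5 SCNT animals above 0. It was at 0.20 ± 0.08 in IVF-ET and -0.05 ± 0.52 in AI animals. The epithelial connexin GJB2 averaged -0.37 ± 0.38 in SCNT, -0.39 ± 0.73 in IVF-ET and -0.23 ± 0.43 in AI animals. A second GJB2 probe averaged -0.17, -0.04 and -0.01 in the same groups. Both GJB2 probes therefore lay below 0 in all groups, with a mean within 1 SD of 0 in each.

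GJB6, a connexin of epidermis and inner ear, had the smallest adjusted p of the family in SCNT animals. It was below 0 in 5 of 5 of them, at -0.76 to -0.14, with a mean of -0.36 ± 0.24 (SD; limma adjusted p = 0.137, and 0.0377 with animals weighted). In IVF-ET animals it averaged -0.04 ± 0.21 and in AI animals -0.01 ± 0.33. GJB5, GJD2 (a neuronal connexin) and PANX1, a channel of the plasma membrane that releases ATP, had means between -0.08 and 0.06 in every group. In the differences between groups none of the 7 was called, where 0.948% of probes were called for SCNT minus AI, 0.0579% for IVF-ET minus AI and 0 of 13818 for SCNT minus IVF-ET (610 with an unadjusted p under 0.05).

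**Figure D3:**
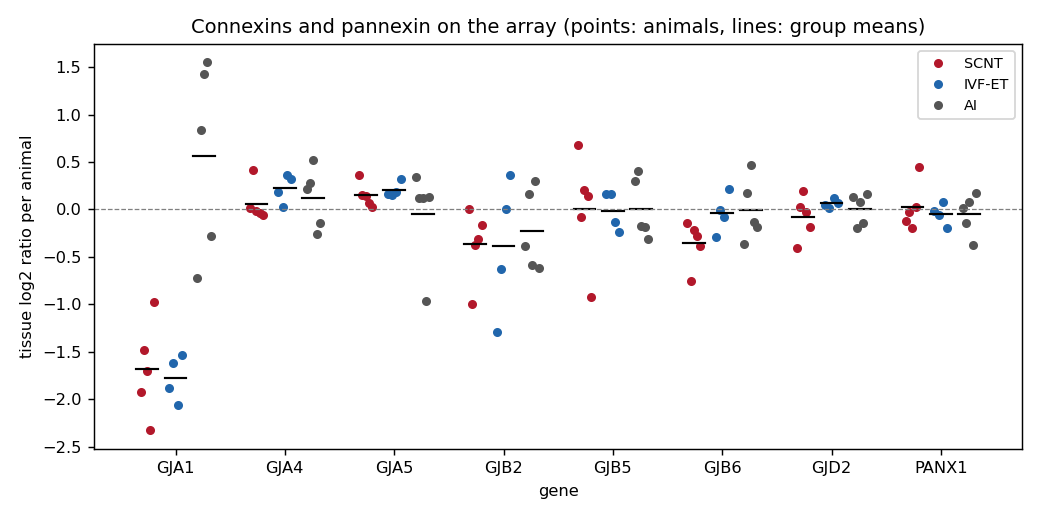
Tissue log2 ratio per animal (points) and group mean (lines) of GJA1 and of the other 7 connexins and pannexins measured, in SCNT, IVF-ET and AI animals. Group means of the other genes stay between -0.39 and 0.22, while GJA1 is at -1.68, -1.77 and 0.56.

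Proteins that bind Cx43 or govern its assembly, gating and turnover were mostly not called. Of 43 listed, 31 were measured in SCNT animals, where 2 were called on the positive side, 1 on the negative side and 28 were not called. Over all probes 0.767% were called on the positive side and 1.06% on the negative side in SCNT animals. The list median was 0.03. On the positive side stood EZR, which ties membrane proteins to actin, at 0.98 ± 0.23 (SE from limma, adjusted p = 0.0402). With it stood TSG101, a subunit of the machinery that sorts membrane proteins for degradation, at 0.52 ± 0.10 (adjusted p = 0.0192). DBN1, an actin-binding protein known to bind the tail of Cx43, was on the negative side with GJA1, at -0.45 ± 0.11 (adjusted p = 0.0483). TSG101 was also called for SCNT minus AI (0.66 ± 0.15, SE, limma adjusted p = 0.0448), where 0.413% of probes were called on the positive side. With each of 14 animals left out in turn, the call in SCNT animals held in 6 fits for EZR, 11 for TSG101 and 3 for DBN1, and that of TSG101 for SCNT minus AI in 3. In IVF-ET animals none of the 31 was called, and EZR averaged 0.92, TSG101 0.13 and DBN1 -0.08. The means in AI animals were -0.13, -0.14 and 0.21, with none called. Over all probes 0 of 13818 were called in IVF-ET and in AI animals.

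Of 29 transcription factors and hormone receptors tied to GJA1 transcription, 21 were measured and 3 were called in SCNT animals, all on the negative side. Over all probes 1.06% were called on that side in SCNT animals. The list median was -0.16. SNAI2, a repressor of epithelial genes, was at -0.67 ± 0.12 (SE from limma, adjusted p = 0.0117). TCF7L2, an effector of WNT signalling, was at -0.49 ± 0.10 (adjusted p = 0.024). TBX3, a T-box factor, was at -0.88 ± 0.20 (adjusted p = 0.0382), while a second TBX3 probe was at -0.06 (adjusted p = 0.882), so its probes disagree. SNAI2 ran between -1.09 and -0.13 in SCNT animals, -0.75 and -0.42 in IVF-ET animals and 0.25 and 0.89 in AI animals. As deposited, neither group overlapped with AI. Of all probes tested, 1.65% had every SCNT animal and 1.85% every IVF-ET animal below every AI animal. With the AI sign turned, the AI animals overlap both groups. Its differences were called for SCNT minus AI (-1.29 ± 0.16, adjusted p = 0.00363) and for IVF-ET minus AI (-1.25 ± 0.17, adjusted p = 0.0328). On the negative side 0.536% of probes were called for SCNT minus AI and 0.0289% for IVF-ET minus AI, with the same share of 0.0289% on the positive side of the second difference. With 1 animal left out, SNAI2 stayed called in 13 of 14 fits in SCNT animals, in 14 for SCNT minus AI and in 4 for IVF-ET minus AI, TCF7L2 in 11 and TBX3 in 8. With the AI sign turned no probe was called in either difference.

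Of 30 signals of implantation and decidualisation, 22 were measured. In SCNT animals MSX1 was called on the positive side and FST and IGF2 on the negative side, and 19 were not called (list median -0.04). Over all probes 0.767% were called there on the positive side and 1.06% on the negative side. MSX1, a homeobox factor of the uterus at implantation, was at 1.16 ± 0.22 (SE from limma, adjusted p = 0.0143), and a second MSX1 probe was at 0.06 (adjusted p = 0.895), so the probes disagree. The activin-binding protein FST was at -1.08 ± 0.26 (adjusted p = 0.0483) and the growth factor IGF2 at -0.78 ± 0.14 (adjusted p = 0.0117). For SCNT minus AI, IGF2 was called at -0.85 ± 0.19 (SE, limma adjusted p = 0.0477), where 0.536% of all probes were called on the negative side. With 1 animal left out, calls in SCNT animals held in 12 of 14 fits for MSX1, 13 for IGF2 and 3 for FST, and that of IGF2 for SCNT minus AI in 4. None of the 22 was called in IVF-ET or AI animals, where 0 of all 13818 probes were called.

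Genes of the other cell junctions lay mostly across from GJA1. Of 30 listed genes of tight junctions, adherens junctions and desmosomes, 18 were measured. In SCNT animals 14 had a mean above 0 and 4 below, with a median of 0.17. Over all probes 0.767% were called there on the positive side. Of the list 3 genes were called, all on the positive side. They were CGN, a scaffold of tight junctions (0.66 ± 0.12, SE from limma, adjusted p = 0.0117), the desmosomal protein DSP (0.63 ± 0.14, adjusted p = 0.0268) and OCLN, a membrane protein of tight junctions (0.51 ± 0.12, adjusted p = 0.0483). In IVF-ET animals 16 of 18 means were above 0 (median 0.27) and in AI animals 2 of 18 (median -0.16). None was called in either group, where 0 of all 13818 probes were called. CGN was called for SCNT minus AI (1.07 ± 0.17, limma adjusted p = 0.0126) and for IVF-ET minus AI (1.07 ± 0.18, limma adjusted p = 0.0487), with the AI sign as deposited. On the positive side 0.413% of all probes were called for SCNT minus AI and 0.0289% for IVF-ET minus AI. With 1 animal left out, calls in SCNT animals held in 13 of 14 fits for CGN, 11 for DSP and 3 for OCLN, and CGN held in 12 for SCNT minus AI and in 4 for IVF-ET minus AI. DSP and OCLN also stand in the list of epithelial markers.

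The gene with the profile most like that of GJA1 was PTN, a secreted growth factor that binds heparin. Likeness was measured as the root mean square difference from GJA1 over 14 animals, among 264 genes whose SD over animals was at least 0.5 of that of GJA1. PTN differed by 0.52, close to the 0.45 by which the arrays of an animal differed from their mean for GJA1 itself. PTN was at -2.67 to -1.41 in SCNT, -1.82 to -1.23 in IVF-ET and -1.86 to 1.42 in AI animals. It lay on the side of GJA1 in 14 of 14 animals, with AI replicates 1 and 5 negative for both genes. PTN was picked for its nearness to GJA1 in these same animals, so the shared side largely follows from the choice.

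The next genes in the same order were SFRP1, a secreted WNT inhibitor (0.60), FAM13B (0.67), LOC513055 (0.73), STRA6, the receptor of the retinol carrier (0.74), the matrix protein SPON1 (0.76), the collagen chain COL6A3 (0.82) and FST (0.83). These values are root mean square differences on the log2 scale, and the first gene not named was at 0.84. The animals behind them are those the choice of GJA1 used, so the order is a description. FAM13B and FST were on the side of GJA1 in 14 of 14 animals and the other 5 in 13, which again largely follows from the choice. SFRP1 averaged -1.32 ± 0.34 in SCNT, -1.1 ± 0.31 in IVF-ET and 0.51 ± 0.91 in AI animals (SD, n = 5, 4 and 5). COL6A3 differed from GJA1 most in SCNT replicate 5, where it was at -2.46 and GJA1 at -0.98, and in AI replicate 1, at 0.61 and -0.72.

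The profile nearest to the mirror image of GJA1 was that of SLC16A11, a member of the monocarboxylate transporter family, at a root mean square distance of 0.66. It was followed by LOC613966 (0.67), the endosomal channel MCOLN2 (0.74), the interleukin 6 receptor chain IL6R (0.75), the homeobox factors HOXB8 (0.76) and MSX1 (0.78), the matricellular protein CCN2 (0.79) and the signalling adaptor GRB7 (0.79). SLC16A11 ran from 1.27 to 1.83 in SCNT replicates 1 to 4 and was at -0.69 in replicate 5, against 0.49 to 1.99 in IVF-ET and -1.29 to 0.29 in AI animals. Chosen as nearest to the mirror image, these genes lie opposite to GJA1 largely by that choice. LOC613966, MCOLN2 and MSX1 were on the side opposite to GJA1 in 14 of 14 animals and the other 5 in 13. For MSX1 this holds for 1 probe only. A second MSX1 probe averaged 0.06 in SCNT, 0.16 in IVF-ET and 0.28 in AI animals and does not mirror GJA1. All these genes share the arrays, and so the side of each array, with GJA1.

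**Figure D4:**
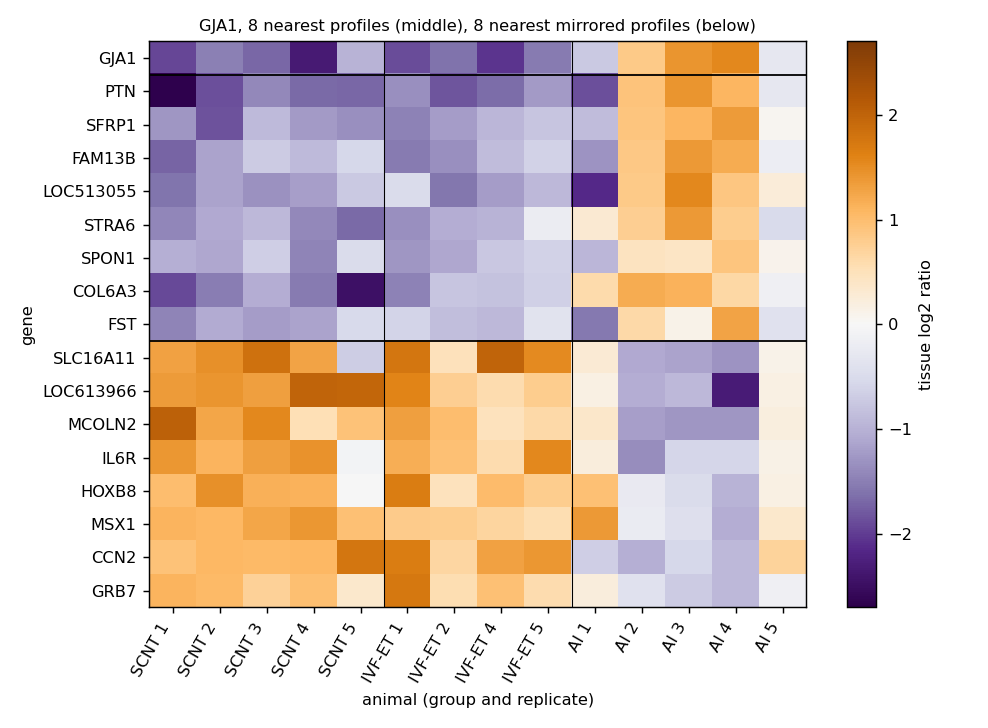
Tissue log2 ratio (colour) of GJA1 in the top line, the 8 genes with the smallest root mean square difference from it in the middle and the 8 nearest to its mirror image at the bottom, in 14 animals by group. AI replicates 2, 3 and 4 have the colours of the other groups exchanged.

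Across animals, the median ratio of stromal fibroblast markers lay mostly on the side of GJA1 and that of epithelial markers mostly on the other. Of 13 stromal markers measured, 13 had a mean below 0 in SCNT animals, 11 in IVF-ET and 2 in AI. In SCNT animals 5 were called, all negative, where 1.06% of all probes were called on that side. These were COL1A1, COL1A2, COL3A1, COL6A3 and THY1. THY1 averaged -0.97 in SCNT, -0.45 in IVF-ET and -0.12 in AI animals, and it was not called for SCNT minus AI. For IVF-ET minus AI none of the 13 was called, where 0.0289% of all probes were called on the negative side. For SCNT minus AI 5 of the 13 were called, all negative, against 0.536% of all probes. They were the collagen chains COL6A3 (-2.37 ± 0.27, SE, limma adjusted p = 0.00285), COL3A1 (-2.31 ± 0.43, adjusted p = 0.0237), COL1A1 (-1.37 ± 0.27, adjusted p = 0.031) and COL1A2 (-1.25 ± 0.27, adjusted p = 0.0391) and the matrix protein SPARC (-1.21 ± 0.23, adjusted p = 0.0237), named after their values were seen. With 1 animal left out these calls held in 14, 10, 9, 4 and 9 of 14 fits, and with the AI sign turned none was called. The list median of an animal lay between -0.97 and -0.28 in SCNT, -0.68 and -0.20 in IVF-ET and -0.03 and 0.61 in AI animals. It was on the side of GJA1 in 13 of 14 animals, the exception being AI replicate 1. Among its defining genes COL3A1 averaged -1.70 in SCNT, -0.96 in IVF-ET and 0.61 in AI animals, while VIM, a filament of mesenchymal cells, averaged -0.05, 0.11 and 0.49.

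Of 12 epithelial markers measured, 11 had a mean above 0 in SCNT, 12 in IVF-ET and 1 in AI animals, and 2 were called in SCNT animals (DSP and OCLN), both positive, where 0.767% of all probes were called on that side. None of the 12 was called in a difference between groups. Over all probes 0.948% were called for SCNT minus AI, 0.0579% for IVF-ET minus AI and 0 of 13818 for SCNT minus IVF-ET. At such shares a call among 12 genes is hardly to be awaited, so nothing is read from the absence. The list median of an animal lay between -0.04 and 0.56 in SCNT, 0.33 and 0.80 in IVF-ET and -0.55 and 0.25 in AI animals, on the side opposite to GJA1 in 13 of 14. The exception was SCNT replicate 5, at -0.04. SCNT replicate 5 was also the SCNT animal with GJA1 nearest to 0, while its stromal median of -0.87 was the second lowest of the group.

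Smooth muscle is where GJA1 is abundant at the end of pregnancy. The median of 8 smooth muscle markers lay between -0.23 and 0.21 in SCNT, -0.26 and 0.11 in IVF-ET and -0.22 and 0.71 in AI animals, on the side of GJA1 in 6 of 14. Medians of the endothelial (8 genes), leukocyte (12), gland (4) and red blood cell (3) lists were on its side in 5, 4, 9 and 8 of 14 animals. The gland markers, which could mark the intercaruncular side, did not share a side: 2 of 4 were below 0 in SCNT, 2 in IVF-ET and 1 in AI animals. Of 11 trophoblast markers, 9 had a mean below 0 in SCNT, 9 in IVF-ET and 7 in AI animals. Their median ran from -1.14 to 0.11 in SCNT, -0.18 to 0.05 in IVF-ET and -0.18 to 0.08 in AI animals and was on the side of GJA1 in 10 of 14. The part of these cell types in the GJA1 ratio was not tested.

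**Figure D5:**
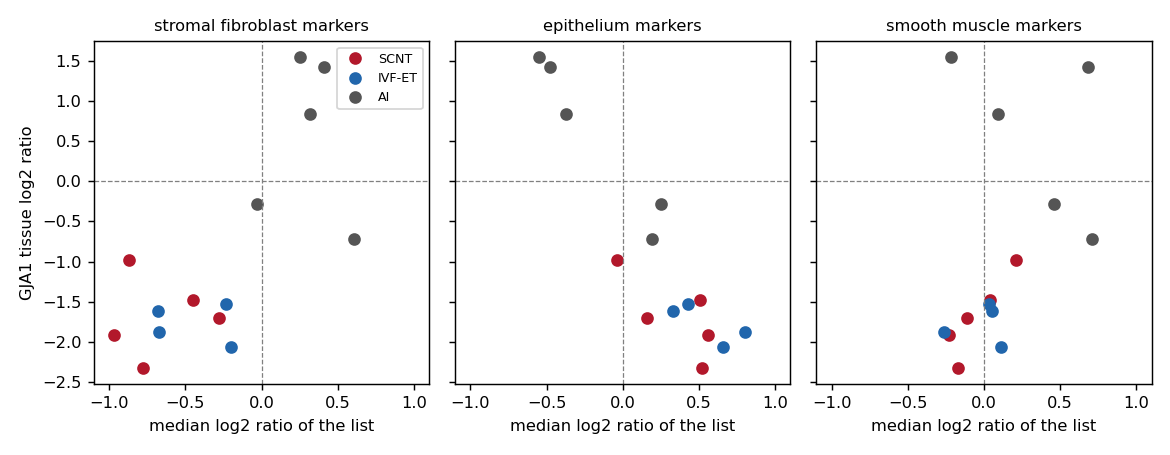
GJA1 tissue log2 ratio (vertical axis) against the median log2 ratio of the stromal, epithelial and smooth muscle marker lists (horizontal axis), with 1 point for each of 14 animals. Animals with GJA1 below 0 lie mostly left of 0 for stromal markers and right of 0 for epithelial markers, and on both sides of 0 for smooth muscle.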

How the data were processed

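Each array was deposited as 1 log ratio per spot, which was read as log2. The authors' values have array medians between -0.0205 and 0.019; how they were normalised, the log base and which channel is on top are not given in the sources used here. Per the labels' protocols, aminoallyl cDNA was coupled to Cy3 or Cy5. Adjacent spots were averaged into 13824 probes, named from the platform annotation (8645 with 1 symbol, 105 with several, 5074 not listed). Symbols were checked against the RefSeq table of assembly ARS-UCD2.0, and 0 were updated. No coordinates are printed, since no build is named in the sources used here.

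Arrays were centred on their median, each probe's dye effect was subtracted, and both arrays of a cow were averaged. The labels number the arrays group by group, so that group and order of arrays cannot be told apart. A probe was tested with at least 4 values in AI and SCNT and 3 in IVF-ET animals, which left 13818. Group means were fitted to all animals at once, with a shared spread, by limma 3.58.1 (R 4.3.3), two-sided, with Benjamini-Hochberg adjustment over all probes and a threshold of 0.05. The script was tested on simulated data. Replicate numbers name different animals in each group.

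GJA1, the gene lists and the tests were chosen with earlier results of these data known. Named were GJA1, the connexins measured, up to 4 called members of each other list by size, and 8 genes each way by profile distance. A gene with several probes is given by the probe with most values, or the first. The alternatives were another reading of the ratios, the AI sign, IVF-ET replicate 3 kept, no dye correction, scaled arrays, single spots, weighted animals, groups fitted alone and each animal left out.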

Additional observations from a re-analysis of the deposited data

Results flagged for a closer look

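Each of 34 genes was examined in 3 groups, which makes 102 sets of animals. In 7 of these sets 1 animal lay far from the rest of its group, where chance gives about 1 in 20. The number is near that rate, so nothing is read from it. The same animal can stand out in several sets. GJA1 gave none. GJA4 was at 0.42 in SCNT replicate 2, against -0.06 to 0.01 in the other 4 SCNT animals. GJA5 was at -0.97 in AI replicate 4, against 0.12 to 0.34. IGF2 was at -0.64 in IVF-ET replicate 1, against -0.03 to 0.08. In SCNT replicate 5 SLC16A11 was at -0.69 (1.27 to 1.83 in the others), IL6R at -0.08 (1.11 to 1.44) and CCN2 at 1.77 (0.94 to 1.07). The arrays of that animal had the widest spread over probes, with SDs of 0.816 and 0.723. CCN2 was also high in AI replicate 5, at 0.71, against -1.02 to -0.55.

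With limma, differences between groups passed an adjusted p of 0.05 for TSG101, SNAI2, IGF2 and CGN of the lists around GJA1 and for 5 stromal markers. TSG101 differed by 0.66, SNAI2 by -1.29, IGF2 by -0.85 and CGN by 1.07 for SCNT minus AI. SNAI2 differed by -1.25 and CGN by 1.07 for IVF-ET minus AI. The stromal markers COL6A3 (-2.37), COL3A1 (-2.31), COL1A1 (-1.37), COL1A2 (-1.25) and SPARC (-1.21) differed for SCNT minus AI. Each of these rests on the AI sign as deposited.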

How the results depend on the processing

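The place of GJA1 depended on how the ratios were read. Read as dye ratios, it lay within 1 SD of 0 in SCNT animals, at -0.03, with replicates 1 and 3 positive (0.20 and 0.43), and was at -0.14 in IVF-ET and 0.11 in AI animals, -0.14 for SCNT minus AI and -0.25 for IVF-ET minus AI. Probes called then numbered 0 in SCNT, 1 in IVF-ET, 357 in AI, 0 for SCNT minus AI and 0 for IVF-ET minus AI. That reading also turned the sign of TSG101 (-0.22), DBN1 (0.04), TBX3 (0.10), MSX1 (-0.26), FST (0.01), IGF2 (0.06), DSP (-0.27), COL1A1 (0.20), COL3A1 (0.30) and COL6A3 (0.12) in SCNT animals, none of them called. With the AI sign turned, GJA1 was at -0.56 in AI animals and -1.21 for IVF-ET minus AI, 0 probes were called for SCNT minus AI and 0 for IVF-ET minus AI, and SPARC was at 0.01 for SCNT minus AI. With IVF-ET replicate 3 kept as deposited, GJA1 was at -1.39 in IVF-ET animals and -0.29 for SCNT minus IVF-ET, and 1 probe was called for IVF-ET minus AI; with its first array turned, 78 were called in IVF-ET and 33 for IVF-ET minus AI. SCNT minus IVF-ET was -0.03 with arrays scaled to the same spread, which called 0 probes for IVF-ET minus AI, and -0.06 with animals weighted. Weights called 726 probes in SCNT, 206 in IVF-ET, 345 for SCNT minus AI and 80 for IVF-ET minus AI. Groups fitted alone called 74, 105, 10 and 18 in the same order. The dye effect was 0.005 with the second spot only (exact permutation p = 0.971). Without 1 animal, GJA1 ran from -1.86 to -1.52 in SCNT, -1.86 to -1.68 in IVF-ET and 0.32 to 0.89 in AI animals, from -2.57 to -2.0 for SCNT minus AI, -2.66 to -2.09 for IVF-ET minus AI and -0.08 to 0.25 for SCNT minus IVF-ET, and its dye effect from -0.107 to 0.044. Probes called then ran from 2 (without SCNT replicate 1) to 325 in SCNT, 0 to 21 (without SCNT replicate 5) in IVF-ET, 5 (without AI replicate 3) to 269 (without AI replicate 1) for SCNT minus AI and 0 to 37 (without SCNT replicate 5) for IVF-ET minus AI. Of 288 profile distances recomputed, 287 moved by less than the spread between arrays, 0.45 for GJA1. That limit is wide against the distances themselves (0.52 to 0.83), so few could count as moved and little is read from the count. With the AI sign turned, GJA1 and the other gene turn together, so those distances could hardly move. Read as dye ratios, they ran from 0.21 to 0.78, with GJA1 itself near 0. Only the 16 named genes were recomputed, so whether the order among all candidates holds is not shown. Settings for the listed and marker genes were added after seeing the data. Of 504 connexin values, 503 stayed uncalled, the exception being GJB6 in SCNT animals with animals weighted (adjusted p = 0.0377). The causes were not tested. No paired analysis was possible because replicate numbers name different animals in each group; the pairing of tissues within an animal is part of each ratio.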
